A study of Solanum chacoense with 24 samples.

Results

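In leaves of F2 plants of Solanum chacoense, a wild potato species with a diploid genome, 124 gene models separated the resistant from the susceptible lines although the parents of the cross had similar levels. They were selected on the 8 line means of expression, out of 37740 gene models in the table. In a member, the lowest mean of one F2 class was at least 1 CPM (counts per 1000000 counts of a library) and at least 1.5 times the highest mean of the other class. The means of the parents had to differ by less than 1.5 times. The classes were separated in this way at 344 models, and at the other 220 the parents were at least 1.5 times apart. Of the 124 members, 36 were higher in the resistant and 88 higher in the susceptible F2 lines. The 344 models leaned the same way, with 113 and 231. Among 9515 tested models with parents this alike and at least 1 CPM in every line of a class, 43.1% were higher in resistant lines. Those were chosen for no class gap. Both contrasts were used to choose the members, so the class difference and the likeness of the parents are described below without a test.

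The study crossed 80-1 (USDA8380-1), which resists the Colorado potato beetle, with the susceptible inbred line M6, and took F2 individuals from both extremes of a field trial. The resistant F2 lines were EE501F2_089, EE501F2_516 and EE501F2_641, and the susceptible ones EE501F2_093, EE501F2_099 and EE501F2_500. Each of the 8 lines gave 3 libraries from 3 plants raised from in vitro culture in a growth chamber at 20 °C with 16 h of light, with leaflets of a single leaf position taken 16 weeks after transplanting. The labels name no beetle feeding and no treatment of these plants. By the labels each line is 1 genotype, so p-values measure the spread between plants and speak of these lines. A library held 23610756 to 40825791 counts in 7 of the lines, and 60713423 to 77078776 in EE501F2_093.

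The Colorado potato beetle is a leaf-feeding insect, and wild potatoes are known to resist it through inherited traits such as bitter leaf alkaloids and glandular hairs. In an F2, each individual draws a new combination of both parents' alleles, so that its level of a transcript can lie between those of the parents or outside their range. A level outside the parental range is called transgressive. A gene at which the parents are alike can therefore still differ between their F2 descendants. No names come with the identifiers in the sources used here, so no member can be given a function, and neither leaf markers nor defence genes could be looked up. In bulk leaf RNA, fewer cells of a type and less RNA per cell cannot be told apart.

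At most members the parents, the resistant 80-1 among them, were nearer in level to the susceptible than to the resistant F2 lines. The mid-parent, which is the mean of the 80-1 and M6 means, was nearer on the log2 scale to the mean of the susceptible lines in 118 of 124 members. The same held for 5944 of 9515 tested models (62.5%) that had parents less than 1.5 times apart and at least 1 CPM in every line of a class, with no demand on a class difference. At the other 220 models with separated classes it held for 176. Among the 36 members higher in the resistant lines, both parents lay below every resistant line in 36. The mid-parent lay below all 6 F2 lines in 14 of these, inside the range of the susceptible lines in 13 and between the classes in 9. Among the 88 members higher in the susceptible lines, both parents lay above every resistant line in 86. The parental mean lay above all 6 F2 lines in 48 of these 88 inside the range of the susceptible lines in another 29 and between the classes in 9.

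**Figure D1:**
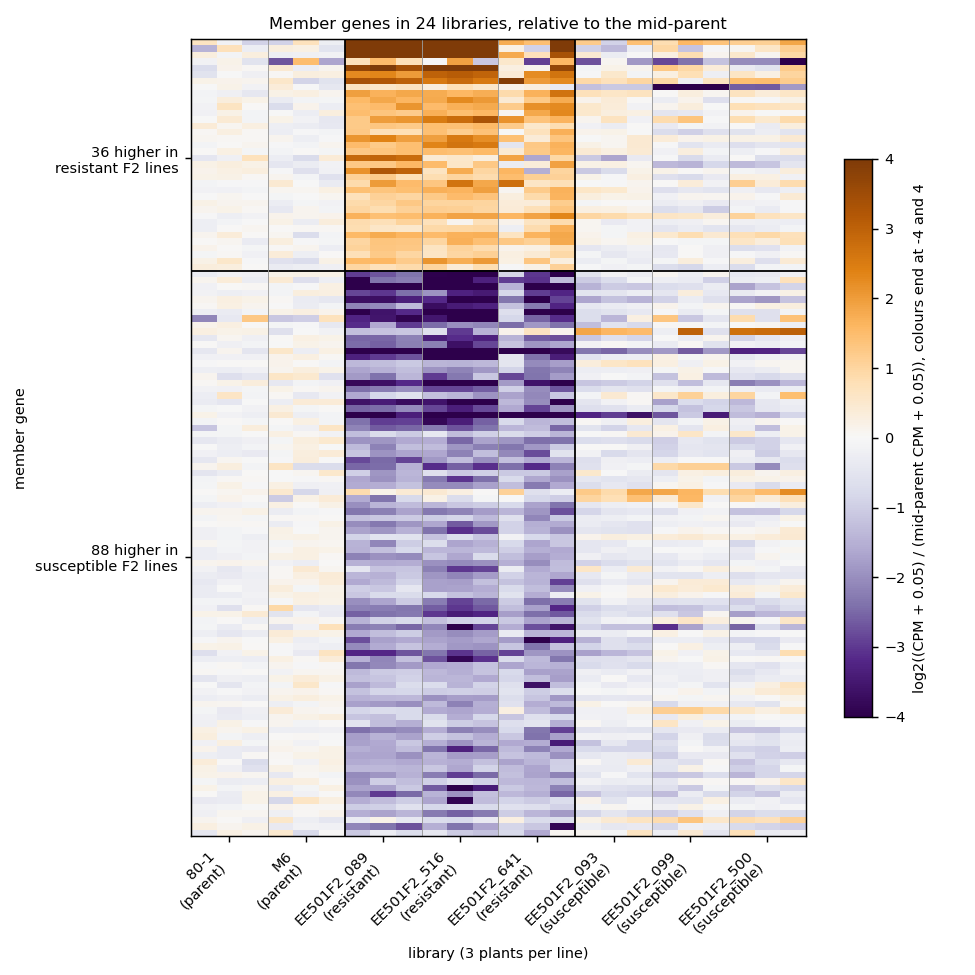
Each row is 1 of the 124 members and each column 1 of 24 libraries, coloured by the log2 ratio of its CPM to the mid-parent with 0.05 CPM added to both, with colours ending at -4 and 4. The columns of lines EE501F2_089, EE501F2_516 and EE501F2_641 carry most of the colour, while those of the parents and of the susceptible lines are pale in most rows, and the first plant of EE501F2_641 is paler than the other plants of its class.

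Among the 36 members higher in the resistant lines, the median log2 ratio of the line mean to the mid-parent was 1.41 in EE501F2_089, 1.53 in EE501F2_516 and 1.12 in EE501F2_641. The susceptible lines had medians of 0.12 in EE501F2_093, -0.08 in EE501F2_099 and 0.06 in EE501F2_500, with members on both sides of 0 (middle 50% from -0.38 to 0.20 in EE501F2_099 and from -0.27 to 0.59 in EE501F2_500). The parents are near 0 by the choice of members and of the scale. Among the 88 members higher in the susceptible lines, the medians were -1.58 in EE501F2_089, -1.87 in EE501F2_516 and -1.5 in EE501F2_641. Here the susceptible lines also lay below the mid-parent, at -0.33 in EE501F2_093, -0.11 in EE501F2_099 and -0.27 in EE501F2_500, but by far less than the resistant lines. As a ratio, the resistant class mean had a median of 2.86 times the mid-parent in the first list and 0.314 times in the second, and the susceptible class mean 1.01 and 0.838 times.

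**Figure D2:**
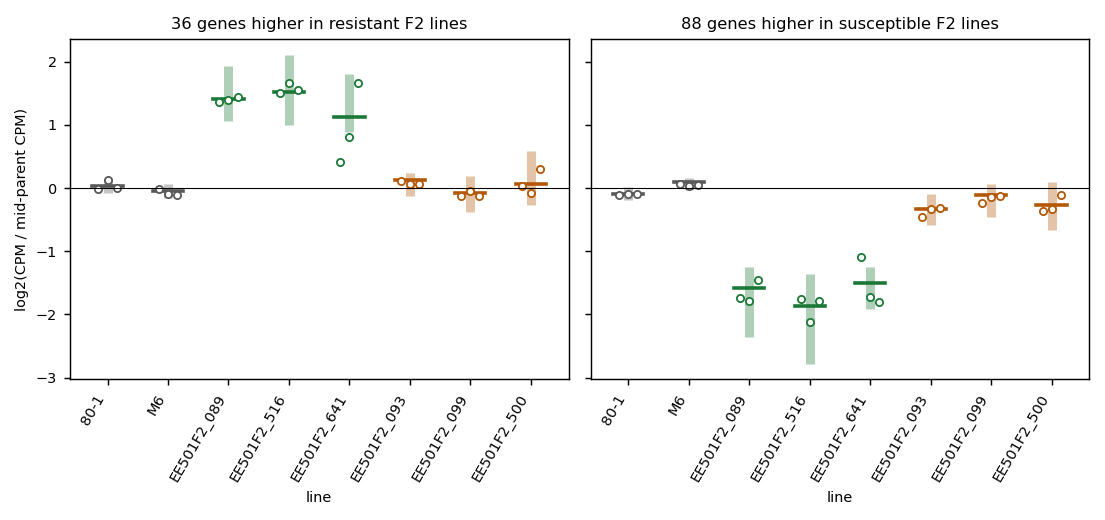
Median log2 ratio of CPM to the mid-parent per line, for the 36 members higher in resistant (left) and the 88 higher in susceptible F2 lines (right). Horizontal bars are medians of line means over members, thick vertical bars their middle 50% and circles the medians of single plants. The resistant lines lie at 1.12 to 1.53 on the left and at -1.87 to -1.5 on the right, while the parents and the susceptible lines lie between -0.33 and 0.12.

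The mean of the 6 F2 lines was also set against the mid-parent, a contrast the rule did not use, and tested over all 21028 models kept by the filter on low counts. In this test the F2 mean and the mid-parent are means of fitted log2 line levels, with library sizes adjusted for composition (TMM). Its log2 differences, here and below, are thus not ratios of mean CPM and can differ much from them where lines are unequal. All 124 members passed that filter. The contrast draws on the same libraries as the rule, and where the classes do not vary equally, choosing a wide class gap also favours one outcome in it. The members' counts are therefore given as a description. If both classes were equally far from the mid-parent on the log2 scale, this difference would be 0, so its sign shows which class was farther away. With edgeR's quasi-likelihood test on plants and Benjamini-Hochberg adjustment, 27 members were higher in the F2 mean than in the mid-parent, 82 were lower and 15 did not pass. Over all tested models 22.6% were higher and 21% lower. Of the 36 members higher in the resistant lines, 26 rose above the mid-parent and 1 fell below it (median log2 difference 0.65). Of the 88 higher in the susceptible lines, 81 fell and 1 rose (median -1.13). The median over all tested models was 0.03.

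By these calls the resistant class was the farther one in 107 members (86.3%) and the susceptible class in 2. Among the 9515 models with like parents, chosen for no class gap, the shares were 32.9% and 10.3%, which lean the same way. The counts of members are thus no evidence independent of their choice. With the line in place of the plant as the replicate (counts summed over the 3 plants of a line), edgeR called 0 members in either direction, beside 0% of all models higher and 0.0136% lower. In that fit 86 members had an unadjusted p under 0.05, a count without the share over all models beside it. Its spread is that of lines within a class and between the parents, which the choice of members tends to keep small. The 86 is therefore partly set by that choice and is no support. DESeq2 on plants called 28 members higher and 81 lower, beside 23.9% and 23% of all models. The 124 genes were measured in the same 8 lines and are not independent of each other.

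**Figure D3:**
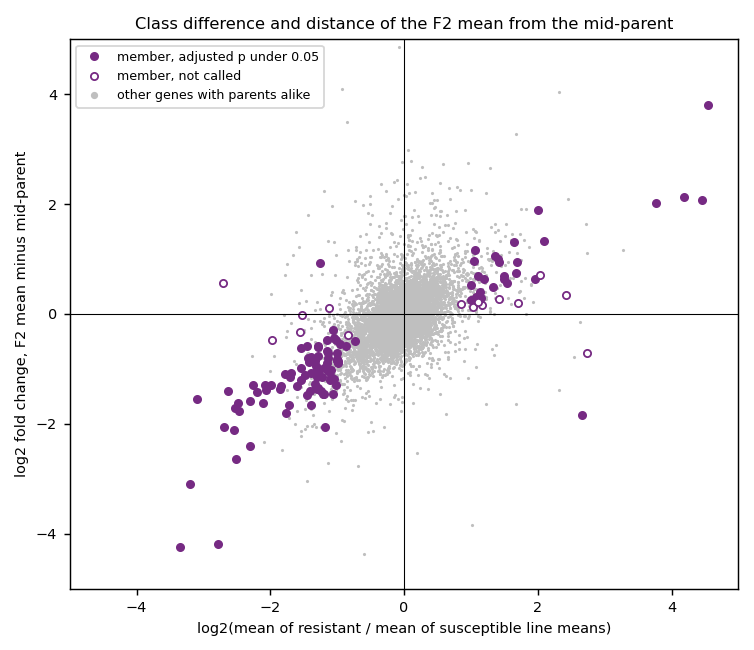
Each point is a gene model, with the log2 ratio of the resistant to the susceptible class mean on the x axis and the edgeR log2 difference of the F2 mean from the mid-parent on the y axis. Grey points are the other models with parents less than 1.5 times apart. Members fill the upper right and lower left corners, where the resistant class is the farther one, with 1 called member at the lower right and 1 at the upper left.

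Both members called with the susceptible class as the farther one are named because their count is small, after their values were seen. Called or not, the mid-parent was nearer the resistant class mean in 6 members. The model g29752 (chromosome 6, 19821048 to 19821554) stood at 6.49, 6.23 and 4.33 CPM in EE501F2_089, EE501F2_516 and EE501F2_641, at 4.21 and 4.15 CPM in 80-1 and M6, and at 1.89, 0.01 and 0.806 CPM in EE501F2_093, EE501F2_099 and EE501F2_500. The parents were here beside the resistant lines, and 2 plants of line EE501F2_099 had no count. The F2 mean lay below the mid-parent by a log2 difference of -1.84 ± 0.17 (SE, edgeR adjusted p = 9.84e-08). The model g27063 (chromosome 4, 36379585 to 36379956) had 1.16, 1.26 and 1.49 CPM as susceptible line means, 0.618, 0.506 and 0.510 CPM as resistant ones and 0.443 and 0.390 CPM in 80-1 and M6. It rose in the F2 mean by 0.93 ± 0.28 (SE, edgeR adjusted p = 0.0114).

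The members with the largest gap between the classes are described first, plant by plant. Among members higher in the resistant lines with at least 5 CPM in each of them, g8902 (chromosome 6, 3067365 to 3070977) had the widest gap, with its lowest resistant line mean 3.52 times its highest susceptible one. Its plants had 54.3, 62.3 and 43.1 CPM in EE501F2_089, 84.7, 131 and 121 CPM in EE501F2_516, and 8.85, 4.28 and 26.5 CPM in EE501F2_641. The 9 susceptible plants ranged from 2.06 to 4.95 CPM and the 6 parental plants from 2.15 to 3.12 CPM. Lines EE501F2_089 and EE501F2_516 were far above everything else, and the second plant of EE501F2_641 fell inside the range of the susceptible plants. The class means were 59.6 ± 49.8 CPM for resistant and 3.29 ± 0.557 CPM for susceptible lines (SD of line means, n = 3), and the F2 mean lay above the mid-parent by 2.13 ± 0.25 (SE, edgeR adjusted p = 1.94e-06), one of the 2 largest rises among members with at least 5 CPM in the higher of F2 mean and mid-parent.

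The model g9351 (chromosome 3, 31867292 to 31868410) had the same shape. Its plants had 28.7, 36.1 and 23.6 CPM in EE501F2_089, 62.7, 111 and 79.9 CPM in EE501F2_516, and 2.62, 2.33 and 28.1 CPM in EE501F2_641, against 1.48 to 5.32 CPM in susceptible and 1.30 to 2.96 CPM in parental plants. In EE501F2_641 only the third plant was high, and the other plants of that line lay among the parents. The F2 mean exceeded the mid-parent by 2.03 ± 0.40 (SE, edgeR adjusted p = 0.000442). The other of the largest rises, g2468 (chromosome 2, 29030138 to 29031125), also had 1 high plant in EE501F2_641, with 0.627, 0.254 and 11.8 CPM, beside 13.5, 10.7 and 15.4 CPM in EE501F2_089 and 19.6, 23.9 and 19.4 CPM in EE501F2_516. Susceptible plants had 0.181 to 1.23 CPM and parental plants 0.162 to 0.921 CPM. Its log2 difference from the mid-parent was 2.07 ± 0.56 (SE, edgeR adjusted p = 0.0055), and 1.5 (adjusted p = 0.0551) without line EE501F2_516.

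The widest gap of all members was at g29777 (chromosome 4, 438564 to 440285), which falls under the 5 CPM minimum and is named after its values were seen. Its lowest resistant line mean was 9.43 times its highest susceptible line mean, and its log2 difference from the mid-parent was 3.80 ± 0.78 (SE, edgeR adjusted p = 0.000571), the highest among members. The plants of EE501F2_641 had 0.274, 0.212 and 5.30 CPM, those of EE501F2_089 and EE501F2_516 between 2.74 and 7.98 CPM, and those of the other lines at most 0.297 CPM. As in the models above, the third plant of EE501F2_641 was the high one.

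In the other direction, g13038 (chromosome 10, 26941523 to 26947558) had the widest gap, 3.28 times. Its plants had 10.1, 11.9 and 15.2 CPM in EE501F2_089, 4.99, 4.89 and 4.87 CPM in EE501F2_516, and 43.1, 9.53 and 4.44 CPM in EE501F2_641. Susceptible plants ranged from 54.0 to 83.8 CPM and parental plants from 63.8 to 90.1 CPM. The parents and the susceptible lines formed one range, and the resistant plants did not reach it, the first plant of EE501F2_641 coming closest. The F2 mean fell below the mid-parent by 1.63 on the log2 scale (SE 0.24, edgeR adjusted p = 1.88e-05). The model g35872 (chromosome 9, 29946513 to 29956391), with a gap of 3.11 times, had 0.684 to 7.80 CPM in resistant, 9.16 to 31.9 CPM in susceptible and 12.2 to 25.6 CPM in parental plants, again with the resistant plants alone below (log2 difference -1.72 ± 0.24, SE, edgeR adjusted p = 1.01e-05).

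**Figure D4:**
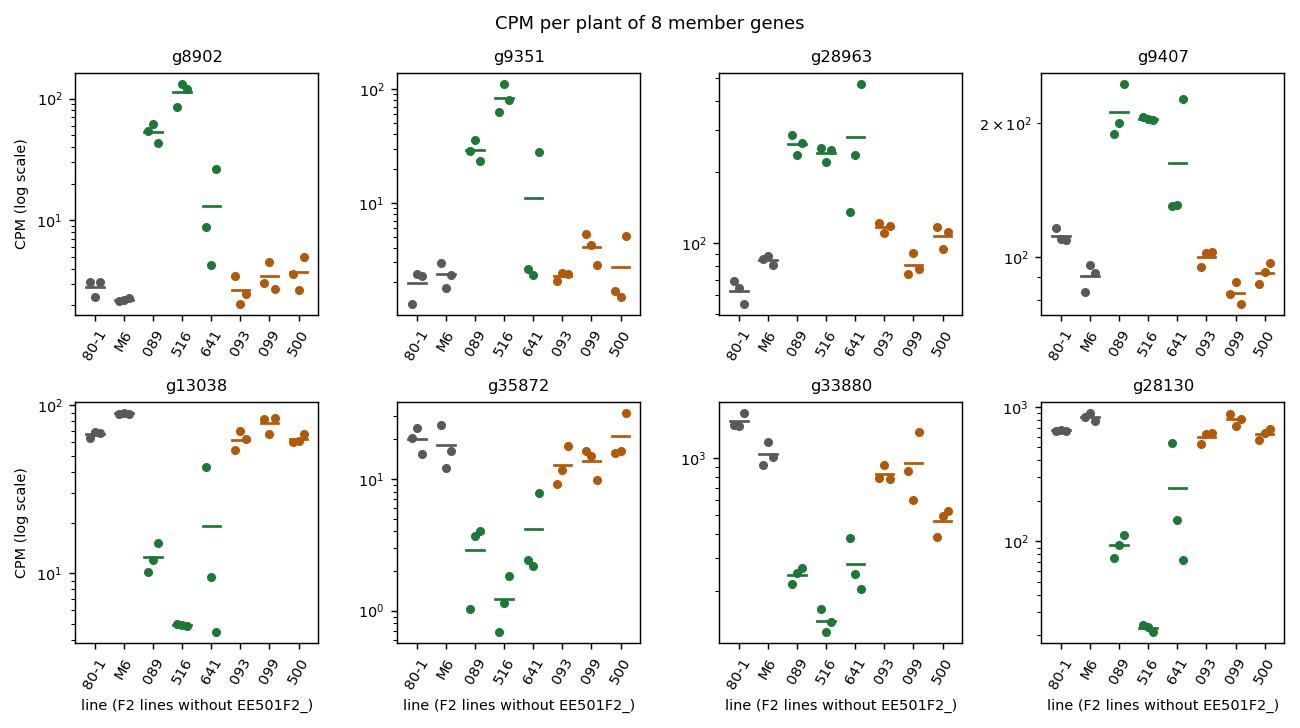
CPM of single plants on log axes for 8 members, the 4 on top higher in the resistant and the 4 below higher in the susceptible F2 lines, with points for plants, bars for line means, grey for parents, green for resistant and orange for susceptible lines. The grey and orange points share a range in most panels and the green points lie outside it, except for single plants of EE501F2_641 such as the second plant for g8902 (4.28 CPM) and the first for g28130 (537 CPM).

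The members with the highest levels in the higher class showed the pattern at smaller ratios. The model g28963 (chromosome 6, 23149957 to 23152594) had 288, 236 and 265 CPM in EE501F2_089, 253, 221 and 248 CPM in EE501F2_516, and 136, 236 and 470 CPM in EE501F2_641. Susceptible plants had 74.2 to 122 CPM and parental plants 55.3 to 88.4 CPM. Every resistant plant was above all others, and the F2 mean rose by 1.06 ± 0.15 (SE, edgeR adjusted p = 1.74e-05). The model g9407 (chromosome 3, 32329755 to 32339923) had 130 to 244 CPM in resistant, 78.5 to 103 CPM in susceptible and 83.5 to 116 CPM in parental plants. Its resistant plants were apart as well, but the difference of the F2 mean from the mid-parent was small (0.30 ± 0.09, SE, edgeR adjusted p = 0.00846). It did not pass without line EE501F2_089 (0.15, adjusted p = 0.179) or without line EE501F2_516 (0.23, adjusted p = 0.0618).

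The highest level of any member was at g33880 (chromosome 5, 39130802 to 39135103). Its plants had 219, 250 and 264 CPM in EE501F2_089, 162, 122 and 137 CPM in EE501F2_516, and 380, 245 and 205 CPM in EE501F2_641. The susceptible plants had 784, 916 and 781 CPM in EE501F2_093, 852, 606 and 1370 CPM in EE501F2_099, and 385, 494 and 526 CPM in EE501F2_500, and the parents averaged 1562 ± 148 CPM in 80-1 and 1050 ± 150 CPM in M6 (SD, n = 3). Parents were highest and resistant lines lowest, with the first plant of EE501F2_641 just under the lowest plant of EE501F2_500. The F2 mean fell by 1.80 on the log2 scale (SE 0.15, edgeR adjusted p = 2.13e-08). At g28130 (chromosome 10, 220758 to 224619), line EE501F2_516 was lowest at 21.1 to 23.9 CPM, EE501F2_089 had 75.2 to 112 CPM, and EE501F2_641 had 537, 144 and 72.6 CPM. Susceptible plants ranged from 526 to 890 CPM and parental plants from 664 to 903 CPM, so that the first plant of EE501F2_641 lay inside the susceptible range (log2 difference -1.77 ± 0.22, SE, edgeR adjusted p = 2.78e-06). Per kilobase of model length, the mean level of the higher class was 368 CPM at g33880, 258 CPM at g28963, 183 CPM at g28130 and 95.2 CPM at g9407.

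The 2 largest falls from the mid-parent, among members with at least 5 CPM on the higher side, were both on chromosome 9 but far apart. At g10742 (1795227 to 1800470) the parents averaged 25.3 ± 3.73 CPM in 80-1 and 27.6 ± 7.35 CPM in M6 (SD, n = 3). The plants had 0.530, 0.808 and 2.52 CPM in EE501F2_089, 1.06, 0.254 and 0.672 CPM in EE501F2_641, and 1, 0 and 4 counts in EE501F2_516, while susceptible plants had 2.05 to 14.6 CPM. All F2 lines were here below both parents, the resistant ones most, and the ranges of the F2 plants met only at the third plant of EE501F2_089. At g17466 (27658338 to 27663680) the parents averaged 11.2 ± 2.56 and 15.4 ± 4.23 CPM, susceptible plants had 1.32 to 3.60 CPM and resistant plants 0 to 0.933 CPM, with 2, 3 and 0 counts in EE501F2_516. The F2 means fell by 4.24 (SE 0.27, edgeR adjusted p = 8.26e-10) and 4.19 (SE 0.18, edgeR adjusted p = 1.55e-12) on the log2 scale.

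The spread between plants of a line was largest in EE501F2_641. Its highest plant had a median of 2.28 times its lowest over the 124 members, against 1.16 to 1.41 times in the other 7 lines. Line EE501F2_641 had the largest ratio between plants in 82 of 124 members, and in 48.8% of the 9515 models with like parents. Among members with at least 5 CPM in every line, those named for the widest spread in a line included g182 (chromosome 1, 56120099 to 56122116), with 20.4, 74.5 and 97.9 CPM in EE501F2_641 beside 64.3 to 79.6 CPM in EE501F2_089, 123 to 135 CPM in EE501F2_516 and 13.4 to 31.6 CPM in susceptible plants. Its first plant of EE501F2_641 was thus at the susceptible level (F2 mean 1.33 ± 0.22 above the mid-parent, SE, edgeR adjusted p = 5.7e-05). At g36104 (chromosome 3, 16783904 to 16785789), EE501F2_641 gave 78.5, 50.1 and 7.13 CPM, beside 15 to 18.8 CPM in EE501F2_089, 2.61 to 16.8 CPM in EE501F2_516, 59.9 to 207 CPM in susceptible and 148 to 265 CPM in parental plants. Here too the first plant of EE501F2_641 was inside the susceptible range. It fell in the F2 mean by 2.11 on the log2 scale (SE 0.32, edgeR adjusted p = 2.46e-05).

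At g15015 (chromosome 5, 24404163 to 24413919) and g10214 (chromosome 7, 1753784 to 1762277), the plants of EE501F2_641 went in different orders. The first model had 22.2, 34.9 and 103 CPM in them, and the second 109, 13.2 and 69.5 CPM, so the most extreme plant of EE501F2_641 was the third at the first model and the second at the other. For g15015 the susceptible line EE501F2_093 (28.8 to 31.9 CPM) was level with the parents (20.0 to 33.7 CPM), while EE501F2_099 and EE501F2_500 were lower at 9.96 to 19.6 CPM. The difference of its F2 mean from the mid-parent did not pass the test (0.20 ± 0.21, SE, edgeR adjusted p = 0.483), whereas g10214 fell, with a log2 difference of -0.72 ± 0.23 (SE, edgeR adjusted p = 0.0174). The call at g10214 was lost without the first plant of 80-1 (adjusted p = 0.0552), the second of M6 (0.0794), line EE501F2_089 (0.0536) or line EE501F2_516 (0.0647).

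Counted over members, the 9 resistant and the 9 susceptible plants did not overlap in 75 of 124, in 15 of the 36 higher in the resistant and in 60 of the 88 higher in the susceptible lines. The same held for 0.252% and 1.26% of the models with like parents, but the members were selected on these plants. The resistant plants lay apart from all 15 other plants in 67 members (1.32% of the models with like parents), and the susceptible plants from all 15 others in 1 (0.0105%). The models with like parents include the members, so these shares are no separate comparison, and the 0.0105% is that 1 member. The first plant of EE501F2_641 overlapped susceptible plants in 33 members, the second in 11 and the third in 6, while plants of EE501F2_089 and EE501F2_516 did so in 0 to 6. These counts by plant have no share over other models beside them, and the members were chosen on means that include these plants. With line EE501F2_641 left out, 109 members had no overlap. Fewer plants overlap less readily at any model, and that count too has no share over other models beside it. Over the 36 members higher in the resistant lines, the median log2 ratios to the mid-parent in the plants of EE501F2_641 were 0.41, 0.81 and 1.66.

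**Figure D5:**
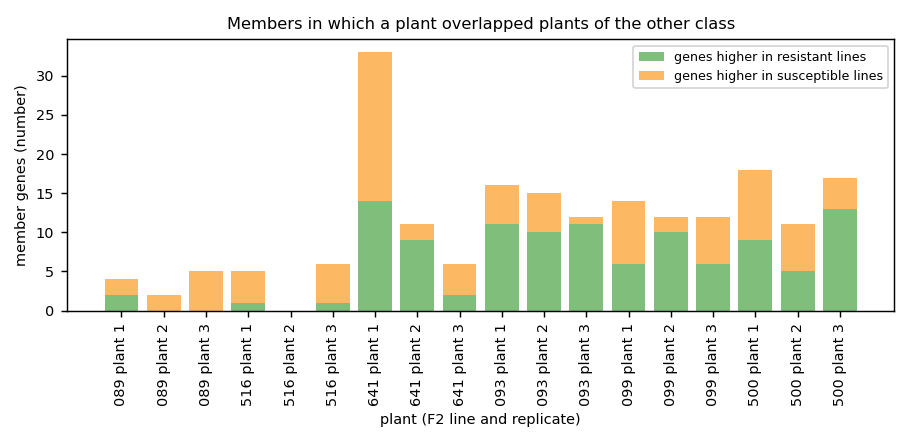
Number of the 124 members in which each F2 plant overlapped the plants of the other class, stacked by direction of the member. The first plant of EE501F2_641 has the tallest bar with 33 members, and the second plant of EE501F2_516 has none. No share over other models stands beside these counts.

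Within the resistant class, EE501F2_516 was the line farthest from the susceptible mean in 70 of 124 members (42.6% of the models with like parents) and EE501F2_641 the nearest in 74 (46.4%). Line EE501F2_516 also stood at one end of the first principal component of the 20904 tested models outside the membership (24.4% of the variance), at 118 ± 16.4 (SD, n = 3). On it EE501F2_641 stood at -50.6 ± 6.65, beside the susceptible line EE501F2_093 at -41.0 ± 11.7 and between 80-1 at -87.4 ± 9.15 and M6 at -21.3 ± 13.2. The classes overlapped on that component, while by choice they do not at the members. The part of this axis in the members' levels was not tested.

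The same measure was also read in plants that the choice had not used. The rule was applied to 2 replicate numbers of every line, and the class separation was read in the plants of the third. Of the models chosen without replicate 3, 13 of 23 higher in resistant lines (56.5%) and 43 of 79 higher in susceptible lines (54.4%) were separated by at least 1.5 times in it, beside 0.961% and 1.62% of all models. In this paragraph, all models are those with at least 1 CPM in every line of the higher class in the left-out replicate. Unlike the chosen models, they did not need to have like parents. Without replicate 2, the counts were 12 of 32 (37.5%) and 52 of 73 (71.2%), beside 0.622% and 1.75%. Without replicate 1, they were 4 of 52 (7.69%) and 19 of 121 (15.7%), beside 0.484% and 0.733%. The shares were lowest for the first plants, and with line EE501F2_641 taken out of the left-out replicate the counts there became 37 of 52 and 73 of 121 (2.12% and 2.81% of all models). Over all 3 replicates together, 37.6% of the chosen models were separated, and 70.8% with EE501F2_641 taken out of the left-out replicate. A class of fewer lines is separated more easily, and the shares of all models rose too. By replicate they went from 0.484% to 0.961% up to 2.12% to 2.87% for higher in resistant lines. For higher in susceptible lines they went from 0.733% to 1.75% up to 2.81% to 4.79%. By the labels plants of a line share a genotype, so these values speak of the plants and not of the classes. Whether the 3 plants of EE501F2_641, which differed most, share one was not tested, and its line mean, the class rule and these shares rest on that label.

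Members lay on all 12 chromosomes. Chromosome 2 held 22 (1.02% of its tested models), chromosome 3 held 16 and chromosome 1 held 15, while chromosome 12 held 4 (0.257%), beside 0.59% overall. Chromosome 2 also held 79 of the 344 models with separated classes, and its members were 27.8% of these, beside 36.0% overall. Most members had no other member within 100 kb. There were 13 runs of neighbours within that distance, and 12 of them held members of a single direction. The longest had 3 members on chromosome 3 within 29.8 kb (38583827 to 38613648), all higher in the susceptible lines.

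In that run, g12067 averaged 2.40 ± 1.62 CPM over resistant and 13.7 ± 4.82 CPM over susceptible lines (SD of line means, n = 3), with 34.1 CPM in 80-1 and 25.5 CPM in M6. The last model, g12071, had 15.9 ± 2.58 and 42.6 ± 11.7 CPM, with 37.6 CPM in 80-1 and 52.0 CPM in M6. Between them, g12070 had 13.2 ± 0.653 and 35.1 ± 9.03 CPM, with 58.9 and 48.2 CPM in the parents. All 3 were lowest in the resistant lines and fell in the F2 mean, by 2.64, 0.87 and 1.41 on the log2 scale in the order named (edgeR adjusted p = 1.4e-07, 0.00017 and 1.18e-07). The EE501F2_516 plants of g12067 had 0.977, 0.157 and 0.959 CPM, below all other lines, while at g12071 the resistant lines were within 13.8 to 18.8 CPM.

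The surroundings were read from the levels of 2449 models outside the membership with strong differences between 80-1 and M6. Their levels place each line between the parents in windows of 5 Mb. No genotype was read, so the parental origin of a window was not tested. In 14 of 96 windows, all lines of one class lay nearer to 80-1 than all lines of the other. Of the 120 members inside the windows, 24 (20.0%) lay in such a window, beside 2903 of 20539 tested models (14.1%) and 64 of 216 other models with separated classes (29.6%). Only members were kept out of the 2449 models. The other models with separated classes could thus help to set the windows they were counted in, and their share is not comparable with that of members. These shares are descriptions, as neighbouring genes are inherited together.

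The members just inside the limit of 1.5 times were g2145 (chromosome 3, 21005062 to 21006405; 1.51 times) and g12260 (chromosome 11, 36208469 to 36210901). The first had resistant line means of 53.5 to 69.4 CPM and susceptible ones of 25.5 to 35.6 CPM, and the second 1.49 to 1.76 and 2.65 to 3.23 CPM. Just outside were g16243 (chromosome 4, 38561625 to 38561993), with resistant line means of 30.4 to 38.9 CPM and susceptible ones of 12.4 to 20.5 CPM, and g30990 (chromosome 2, 32795576 to 32800501), with 581 to 1284 and 1925 to 2156 CPM. At g16243 the parents (8.95 and 12.2 CPM) and at g30990 the parents (2724 and 3249 CPM) again lay on the side of the susceptible lines. Gaps from 1.5 to 1.6 times were found in 7 and 16 members, and gaps from 1.4 to 1.5 times in 14 and 40 further models with like parents.

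The choice of members depended on the scaling. With TMM scaling, which adjusts library sizes for composition, 123 models met the rule and 67 of them were members. The split was then 57 higher in the resistant and 66 higher in the susceptible lines (46.3% higher in the resistant, beside 29.0% with totals alone). TMM factors were 0.777 to 0.89 in the libraries of EE501F2_641 and 1.17 to 1.22 in those of EE501F2_516. The place of the parents moved little, with the mid-parent nearer the susceptible mean in 115 of the 123 and the resistant class farther by a call in 101. These counts have no matching share beside them. The shares given above, 62.5% and 32.9%, are over models whose parents were alike with totals alone. Members higher in susceptible lines were longer models (median 2080 bases) than members higher in resistant lines (1190 bases), beside 1531 bases over all tested models. At 6 members another model overlapped on the opposite strand, and with the strand setting not given, their reads cannot be told apart from the overlapping model's. On chromosome 8, g27329 and g40419 have the same length of 2859 bases and similar levels in every line (3.13 ± 0.738 and 3.06 ± 0.88 CPM in the susceptible lines, SD, n = 3), so they may be copies that share reads and are uncertain as separate members.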

How the data were processed

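Leaf RNA of 24 plants was measured. The deposited table gives whole-number, unnormalized counts for each gene model and library. Its length column, which the authors deposited in bases (another unit), served only to compare levels between models. Per the submitters' processing notes the tools included STAR 2.6.0, Trimmomatic 0.35, DESeq2, Subread and featureCounts 1.5.3. Genome build, annotation and strand are not given in the sources used, and 7954 unplaced models had 0 counts throughout. Coordinates are the outermost exon ends in the deposited table, counted from 1.

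CPM was computed as count divided by library total, and line means from 3 plants. Members and lists were chosen with earlier results of these data known. Named genes are, per direction, the pair with the widest class gap (at least 5 CPM in the higher class), the highest level, the largest change from the mid-parent, and the widest spread in a line (at least 5 CPM in every line), plus those at the limit of 1.5 and in the longest run. Counts were tested in R 4.3.3 with edgeR 4.0.16 (filterByExpr, TMM, quasi-likelihood, 1 mean per line over all 24 libraries, 16 residual degrees of freedom), with Benjamini-Hochberg adjustment over 21028 models and a call at an adjusted p under 0.05. Fitted fold changes are log2. The procedure was run on simulated counts in which lines differed only by a set change between F2 and parents. Unequal spread between plants or lines was not checked. Alternatives were DESeq2 1.42.0, RLE scaling, no filter, a replicate block, line sums, and leaving out libraries or lines. The last of these, members rechosen on TMM values and the held-out values without EE501F2_641 were added after seeing the data. Plants of 1 line differed beyond counting error (chi-square per degree of freedom 11.1 to 222 over 24 pairs), so each library was kept as a replicate.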

Additional observations from a re-analysis of the deposited data

How the results depend on the processing

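The number of members was 124 and became 37 at a class ratio of 2 and 77 under a stricter limit on the parental ratio. It was 233 without line EE501F2_516, 487 without EE501F2_641, 223 without EE501F2_093 and 226 without EE501F2_500, where a class of fewer lines meets the rule more easily. Leaving out 1 library gave 106 to 154 members, the lowest without the third plant of EE501F2_641 (89 shared with the 124). Leaving out a replicate number gave 102 to 173. TMM scaling gave 123 (67 shared), medians of plants 116 (86 shared) and a minimum of 5 CPM 103. Members called higher and lower in the F2 mean than in the mid-parent were 27 and 82, and 0 and 0 with line sums as replicates, where the spread is between lines. They were 27 and 82 with the replicate block and without the filter, 27 and 83 with RLE scaling, 25 to 29 and 80 to 83 without 1 library, and 22 to 30 and 74 to 84 without 1 F2 line. The replicate numbers gave no sign of pairing the plants. Plants of different lines with the same number had correlations from -0.38 to 0.296 (median 0.0128, 84 pairs). Those with different numbers had -0.298 to 0.32 (median 0.00235, 168 pairs). Of the named members that were not called, g15015 and g2145 turned to -0.0486 and -0.0196 without line EE501F2_089. The held-out share of 37.6% became 70.8% with EE501F2_641 taken out of the left-out replicate only. Models were still chosen with that line, and a class of fewer lines is separated more easily. Plants did not overlap in 75 to 98 members without 1 library and in 57 with TMM. Fewer plants overlap less readily at any model, and no share over other models stands beside these counts. The local count was 19 of 116 with windows of 2 Mb. Counts of low models such as g10742 in EE501F2_516 (1, 0 and 4) limit their ratios.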
